A study of Mus musculus with 6 samples.

Results

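The genes described here are 42 neighbours on mouse chromosome 8, from Cpe to Ap1m1, listed because most of them read higher in embryonic stem cells without Sirt1. They were chosen by their levels on these same 6 arrays, so every difference between genotypes given for them is a description and carries no test. A probe set annotated to the gene alone was found for 36 of the 42, of 18193 named genes on the array. The other 6 were Kxd1, Isyna1, Lrrc25, Gdf15 and Pde4c, with no probe set in the annotation used here, and Cers1, with a probe set shared with another gene; they have no values. The label calls the genes raised, but 6 of the 36 had a lower mean in knockout cells. For 3 of these 6, Cpe, Rfxank and Comp, all knockout arrays lay below all wild-type arrays, as for 24.7% of all genes. For Crtc1, Kcnn1 and Fcho1 the arrays of both genotypes overlapped. By gene order the last members are Fcho1 and Ap1m1, which lie beyond Jak3.

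The cells were of the R1 line, mouse embryonic stem cells of strain (129X1 x 129S1)F1, either Sirt1-/- (3 arrays) or Sirt1+/+ (3 arrays). Both genotypes were grown on gelatin in a serum medium with LIF, the cytokine that keeps such cells undifferentiated. Sirt1 encodes an NAD-dependent deacetylase of histones and transcription factors. Total RNA was read on 1 Affymetrix 3' expression array per sample, and each level is a log2 value after RMA, the authors' normalisation, so that 1 unit is a 2-fold difference. The labels give a single source for each genotype. Loss of Sirt1 therefore cannot be told apart from any other difference between both lines. They do not say whether the 3 samples of a genotype were separate cultures, so a p-value given below covers only how these samples vary, which can be technical variation.

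Neighbouring genes on a chromosome can differ together between lines when a stretch of DNA is present in another number of copies, or when it shares a chromatin state. Cultured mouse embryonic stem cells are known to gain chromosomes, chromosome 8 among them. DNA was not measured on these arrays, so the part of copy number in the differences below was not tested. The genes of this stretch have no common pathway: they include a peptide hormone of the early embryo, parts of the RNA decay and splicing machinery, subunits of membrane coats, and kinases of immune cells.

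The arrays fitted their labels. Sirt1 read 8.02, 7.94 and 8.20 on the knockout arrays, against 10.12, 10.13 and 10.23 on the wild-type arrays, a log2 difference of -2.11 (SE 0.08; limma, Benjamini-Hochberg adjusted p = 3.98e-05). The median over all probe sets lay between 4.51 and 4.57 on every array. All 9 defining markers of undifferentiated cells read above the median level of all genes (5.83). Their mean was 11.64 to 11.69 on knockout arrays and 11.97 to 12.00 on wild-type arrays. With a call set at an adjusted p under 0.05 (limma, Benjamini-Hochberg over all genes), 5 of the 9 were called lower in knockout and 0 higher, where 17.5% of all genes were called lower and 12.5% higher. The mean of 6 primitive endoderm markers was 4.45 to 4.63 on knockout arrays and 5.47 to 5.57 on wild-type arrays, with 4 called lower. That of 7 fibroblast markers was 4.39 to 4.502 on knockout arrays and 4.58 to 4.64 on wild-type arrays, with 1 called higher and 2 lower. That of 5 trophectoderm markers was 5.55 to 5.66 on knockout arrays and 5.74 to 5.82 on wild-type arrays, with 1 called lower. In RNA of a whole culture, fewer cells of a type and less RNA per cell cannot be told apart, and the part of these markers in the results was not tested.

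Most of the 36 measured genes, 30 of them, had a higher mean in knockout cells. Their median log2 difference, knockout minus wild type, was 0.40, a 1.32-fold higher level, with the middle 50% of genes between 0.20 and 0.66 and a full range from -1.07 to 1.73. The SD of the differences was 0.57 among the 36 genes and 0.34 among all genes. Among genes above the median level it was 0.58 for the 30 listed ones, 0.48 for other chromosome 8 genes and 0.41 for all genes. Over all 18193 genes the median difference was -0.01. The 3 knockout arrays were alike: the median deviation of the 36 genes from their wild-type means was 0.44, 0.38 and 0.43 on knockout arrays 1, 2 and 3. On the wild-type arrays it was 0.00, -0.02 and 0.02. By the call rule used for the markers (adjusted p under 0.05 in limma), 25 of the 36 were called higher and 2 lower in knockout, where 12.5% of all genes were called higher and 17.5% lower. All 3 knockout arrays lay above all 3 wild-type arrays for 26 genes (19.1% of all genes) and below them for 3 (24.7% of all genes). These counts follow from how the genes were picked.

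**Figure D1:**
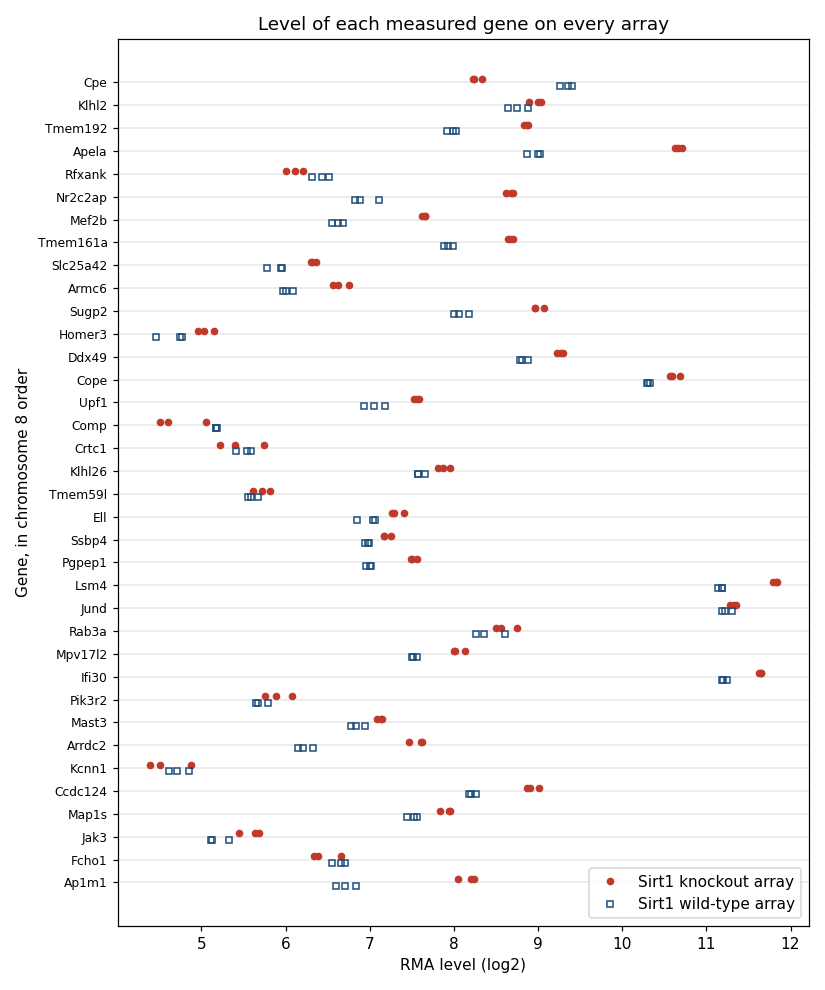
Level (log2 RMA) of each of the 36 measured genes on every array, in chromosome order, with 1 point per array: filled circles are the 3 Sirt1 knockout arrays and open squares the 3 Sirt1 wild-type arrays. For 26 genes all knockout points lie right of all wild-type points, and for Cpe, Rfxank and Comp they lie left of them.

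Brighter members showed the larger differences as a group. The 30 members with a group mean above the median level of all genes had a median difference of 0.44. It was 0.03 in the 6 dimmer ones, which are Homer3, Comp, Crtc1, Tmem59l, Kcnn1 and Jak3. These 6 were not alike: Homer3 (0.39) and Jak3 (0.40) lay close to the median of all 36 genes. Near background an array shows less of a difference than the RNA holds, so a small value for a dim gene is not evidence of an equal level. Across the 36 genes, level and difference correlated at a Spearman's rho of 0.34 (Pearson's r 0.23). This is across genes that share the same 6 arrays, and is given as a description.

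Of the 36, 25 lay within 0.5 of the common difference of 0.40, and 19 within 0.25. The other 11 departed from it by at least 0.5, with 6 above and 5 below. On the upper side Sugp2, at 0.92, was the last gene counted as departing, and Tmem192, at 0.88, the first that was not. On the lower side Kcnn1, at -0.13, was counted as departing and Crtc1, at -0.06, was not.

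The 6 genes above the common difference code for proteins of unlike kinds. Nr2c2ap, which encodes a protein that binds the orphan nuclear receptor TR4, read 8.62, 8.70 and 8.68 in knockout cells, against 6.88, 6.82 and 7.12 in wild-type cells. The groups were far apart, with a log2 difference of 1.73 (SE 0.08), or 3.31-fold. Apela encodes a short secreted peptide that signals through the apelin receptor and is made by pluripotent cells. It read 10.63, 10.66 and 10.71 in knockout cells, against 8.87, 8.995 and 9.03 in wild-type cells. The knockout arrays lay within 0.1 of each other and the difference was 1.70 (SE 0.06), or 3.26-fold. Ap1m1 encodes the medium chain of the AP-1 adaptor, which sorts cargo between the Golgi and endosomes. Its levels were 8.05, 8.21 and 8.24 in knockout cells and 6.59, 6.84 and 6.70 in wild-type cells, without overlap. That was a difference of 1.46 (SE 0.08), or 2.74-fold.

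Arrdc2, an arrestin-domain protein of the family that brings ubiquitin ligases to membrane proteins, read 7.47, 7.62 and 7.61 in knockout cells and 6.33, 6.15 and 6.21 in wild-type cells. Every knockout array was over 1 unit above every wild-type array, with a difference of 1.34 (SE 0.07), or 2.52-fold. Mef2b, a MADS-box transcription factor best known from B cells and muscle, read 7.66, 7.62 and 7.65 in knockout cells, against 6.63, 6.68 and 6.55 in wild-type cells. The difference was 1.03 (SE 0.05), or 2.04-fold. Sugp2, a protein with SURP and G-patch domains related to splicing factors, read 8.97, 9.07 and 8.96 in knockout cells and 8.07, 7.998 and 8.17 in wild-type cells. At 0.92 (SE 0.06) it stood only just past the margin.

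Of the 5 genes below the common difference, Cpe was the brightest. Rfxank and Fcho1 also read above the median level of genes, and Comp and Kcnn1 below it. Cpe encodes carboxypeptidase E, which trims basic residues from prohormones in secretory granules. It read 8.24, 8.34 and 8.23 in knockout cells, against 9.36, 9.26 and 9.41 in wild-type cells. It was the only member more than 2-fold lower in knockout, at -1.07 (SE 0.06) or 2.10-fold lower, although it is the first gene of the list. Rfxank, a subunit of the RFX complex that binds promoters of MHC class II genes, read 6.004, 6.11 and 6.20 in knockout cells and 6.32, 6.52 and 6.43 in wild-type cells. Its arrays did not overlap, and the difference was -0.32 (SE 0.08).

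Comp, a matrix protein of cartilage, read 5.06, 4.60 and 4.51 in knockout cells, against 5.18, 5.19 and 5.17 in wild-type cells. Its knockout arrays were lower but spread over more than the difference of -0.46 (SE 0.14). Fcho1, which starts clathrin-coated pits, read 6.33, 6.66 and 6.38 in knockout cells and 6.56, 6.71 and 6.66 in wild-type cells. Kcnn1, a calcium-activated potassium channel of neurons, read 4.51, 4.38 and 4.88 in knockout cells and 4.71, 4.62 and 4.85 in wild-type cells. For both the groups overlapped, so the differences of -0.19 (SE 0.10) and -0.13 (SE 0.14) were within the spread between arrays.

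**Figure D2:**
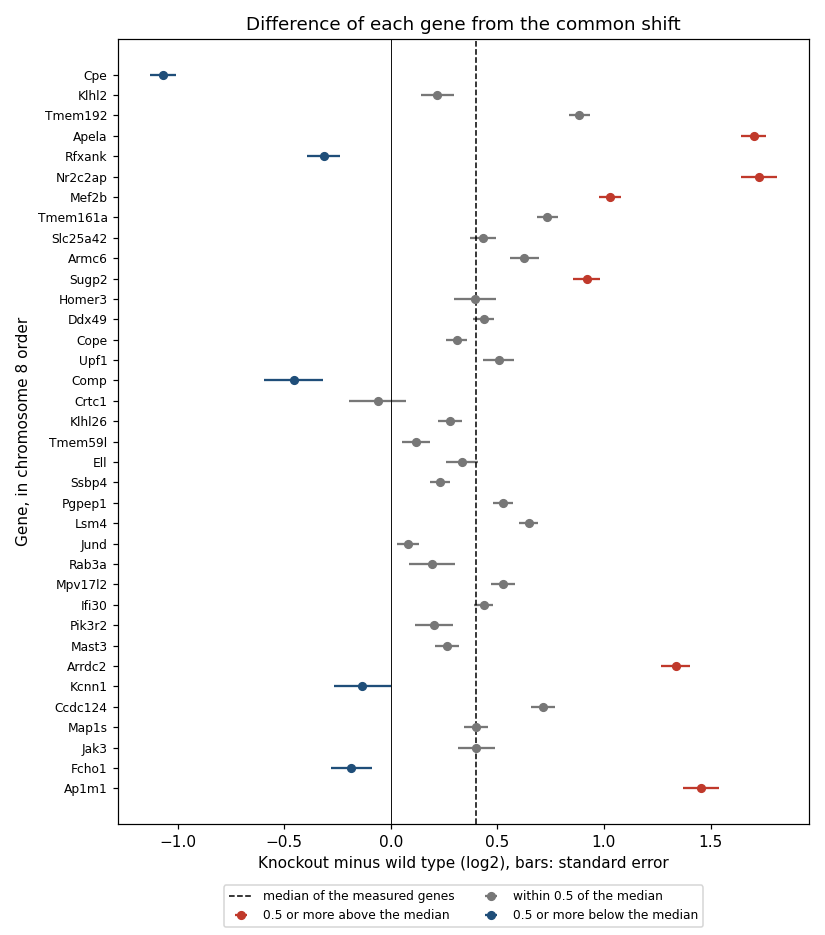
Log2 difference, knockout minus wild type, of the 36 measured genes in chromosome order, with standard errors from limma; the dashed line is their median of 0.40 and the solid line is 0. Red points lie at least 0.5 above the median (Apela, Nr2c2ap, Mef2b, Sugp2, Arrdc2, Ap1m1) and blue points at least 0.5 below it (Cpe, Rfxank, Comp, Kcnn1, Fcho1).

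Genes that lie side by side departed in opposite directions. Rfxank (-0.32) and Nr2c2ap (1.73) are next to each other in the order of measured genes, and in RefSeq on GRCm38.p6 Nr2c2ap lies within the span of Rfxank on the other strand. The signals of overlapping genes on opposite strands could be confused if a probe set took up both, and the strand of each probe set was not tested. The promoter windows of both genes are shown with those of Apela and Arrdc2, the next 2 genes above the common difference for which a window was held, and with that of Cope, a gene near the common difference. Each window runs from 250 bases before to 50 bases after the RefSeq start of the gene, on GRCm38.p6, 5′ to 3′ on the gene's own strand. Capitals mark matches on either strand to the TATA box (TATAAA), the cyclic AMP response element (TGACGTCA), the E-box (CACGTG), an amino acid response core (TGATGCAA), the GC box (GGGCGG) and the CCAAT box (CCAAT). The motifs do not contain each other, but GC boxes can overlap among themselves.
Nr2c2ap, chr8:70131077-70131376, strand plus: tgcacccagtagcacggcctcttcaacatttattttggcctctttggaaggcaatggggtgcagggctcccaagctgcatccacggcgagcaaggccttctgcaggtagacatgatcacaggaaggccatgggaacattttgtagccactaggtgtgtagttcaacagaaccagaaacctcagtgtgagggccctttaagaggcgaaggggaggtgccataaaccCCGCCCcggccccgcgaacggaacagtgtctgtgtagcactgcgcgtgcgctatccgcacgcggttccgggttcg
Rfxank, chr8:70139148-70139447, strand minus: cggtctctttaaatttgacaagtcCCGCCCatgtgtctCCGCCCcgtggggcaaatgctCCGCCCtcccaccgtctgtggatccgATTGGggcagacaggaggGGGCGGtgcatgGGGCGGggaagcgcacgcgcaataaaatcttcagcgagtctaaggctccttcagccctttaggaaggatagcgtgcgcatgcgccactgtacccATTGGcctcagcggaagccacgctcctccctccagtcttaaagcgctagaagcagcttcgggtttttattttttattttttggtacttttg
Apela, chr8:65037287-65037586, strand minus: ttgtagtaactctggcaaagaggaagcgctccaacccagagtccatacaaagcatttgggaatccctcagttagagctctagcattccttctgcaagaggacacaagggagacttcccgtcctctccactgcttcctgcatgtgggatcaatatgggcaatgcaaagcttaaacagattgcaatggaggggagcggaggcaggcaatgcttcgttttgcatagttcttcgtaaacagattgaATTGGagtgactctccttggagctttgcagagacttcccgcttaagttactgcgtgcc
Arrdc2, chr8:70839671-70839970, strand minus: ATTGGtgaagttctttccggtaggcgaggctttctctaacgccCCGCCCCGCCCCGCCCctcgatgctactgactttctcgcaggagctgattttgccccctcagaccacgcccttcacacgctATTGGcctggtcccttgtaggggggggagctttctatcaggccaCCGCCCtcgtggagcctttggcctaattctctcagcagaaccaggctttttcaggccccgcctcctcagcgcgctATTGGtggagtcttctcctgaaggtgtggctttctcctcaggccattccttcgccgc
Cope, chr8:70302517-70302816, strand plus: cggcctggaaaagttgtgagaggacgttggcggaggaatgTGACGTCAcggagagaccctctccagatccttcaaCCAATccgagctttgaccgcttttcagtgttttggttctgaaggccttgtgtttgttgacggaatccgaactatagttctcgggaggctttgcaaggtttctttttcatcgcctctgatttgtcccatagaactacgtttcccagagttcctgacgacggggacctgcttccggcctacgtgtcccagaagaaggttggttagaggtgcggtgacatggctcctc

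The window of Nr2c2ap holds 1 match to the GC box and 17 CpG dinucleotides. That of Rfxank holds 5 GC boxes and 2 CCAAT boxes, with 20 CpG. In the Apela window 1 CCAAT was found, no GC box, and 7 CpG. The Arrdc2 window holds 4 GC boxes, 3 of them in 1 run without a gap, 3 CCAAT and 17 CpG. That of Cope holds 1 cyclic AMP response element and 1 CCAAT box. Ddx49 lies on the other strand, and its windows overlap that of Cope and hold the same match. Both of these genes were near the common difference, at 0.31 for Cope and 0.44 for Ddx49.

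Promoter windows of 31 of the 36 measured genes were held. Of these 31 genes, 24 (77.4%) had a GC box in a window, beside 38.2% of the 27025 genes in the table. For CCAAT it was 13 of 31 (41.9%), beside 41.1%. TGACGTCA was found in Cope, Ddx49 and Tmem59l, or 9.68% of the 31, beside 2.03% of all genes, with Cope and Ddx49 sharing their match. CACGTG was found in Ifi30 and Sugp2 (6.45%, beside 8.09%). The TATA box and the amino acid response core were found in 0 of 31, beside 15.7% and 1.03%. The 35 windows of the 31 genes had 3 to 54 CpG, with a median of 21 beside 7 over 32851 windows. The table of all genes includes predicted genes, so these shares do not compare like with like.

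The 4 genes of RNA processing all read higher in knockout, by a median of 0.58. Upf1, the helicase that drives nonsense-mediated mRNA decay, read 7.53, 7.59 and 7.56 in knockout cells, against 7.05, 6.93 and 7.18 in wild-type cells, a difference of 0.51 (SE 0.07). Lsm4, part of the ring of Lsm proteins that binds U6 RNA and takes part in mRNA decapping, was among the brightest members, with means of 11.82 ± 0.03 in knockout and 11.17 ± 0.03 in wild type (SD, n = 3 each). Its difference was 0.65. The DEAD-box RNA helicase gene Ddx49 (0.44) and Sugp2 (0.92) complete the group.

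The 7 genes of transcription went in both directions. Beside Nr2c2ap, Mef2b and Rfxank they include Jund, an AP-1 family factor and 1 of the brightest members. It read 11.33, 11.29 and 11.35 in knockout cells, against 11.19, 11.23 and 11.30 in wild-type cells. The ranges overlapped, and the difference of 0.08 (SE 0.05) was the smallest positive difference among members above the median level. Ell, a factor that speeds up RNA polymerase II, read 7.27, 7.40 and 7.29 in knockout cells and 7.04, 6.85 and 7.07 in wild-type cells, 0.33 higher (SE 0.08). Ssbp4, a cofactor that binds LIM-domain complexes, was 0.23 higher (SE 0.05). Crtc1, a coactivator of CREB, overlapped between genotypes at -0.06 (SE 0.13).

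Of the 6 genes of membrane traffic and lysosomes, 5 read higher. Cope, the epsilon subunit of the COPI coat of Golgi vesicles, read 10.60, 10.68 and 10.57 in knockout cells, against 10.33, 10.29 and 10.30 in wild-type cells, a difference of 0.31 (SE 0.05). Ifi30, the lysosomal thiol reductase that helps in antigen processing, averaged 11.64 ± 0.01 in knockout and 11.21 ± 0.03 in wild type (SD, n = 3 each), a difference of 0.44. Tmem192, a protein of the lysosomal membrane, was 0.88 higher (SE 0.05), the largest of the 25 members within the margin. Rab3a, a GTPase of regulated exocytosis, read 8.74, 8.56 and 8.504 in knockout cells and 8.35, 8.61 and 8.26 in wild-type cells. Its arrays overlapped, and 0.19 (SE 0.11) was within their spread. Ap1m1 and Fcho1, given above, were at the far ends of this group.

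The mitochondrial and metabolic genes were tightly grouped. Slc25a42, the mitochondrial carrier of coenzyme A, was 0.43 higher (SE 0.06). Mpv17l2, a protein of the inner mitochondrial membrane, and Pgpep1, a peptidase that removes N-terminal pyroglutamate, were both 0.53 higher (SE 0.06 and 0.05). For these 3 genes all knockout arrays lay above all wild-type arrays, as for 26 of the 36 listed genes and 19.1% of all genes.

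The 7 genes of signalling and scaffolds had a median difference of 0.26, with Arrdc2 furthest above it. Jak3, the kinase of the common gamma chain cytokine receptors of lymphocytes, read 5.68, 5.45 and 5.64 in knockout cells, against 5.11, 5.32 and 5.13 in wild-type cells, all below the median level of genes. It was 0.40 higher (SE 0.09). Pik3r2, a regulatory subunit of class IA PI3 kinase, read 5.76, 5.89 and 6.07 in knockout cells and 5.79, 5.65 and 5.67 in wild-type cells, with overlap (0.20, SE 0.09). The kinase gene Mast3 was 0.26 higher (SE 0.06). Homer3, a scaffold of synaptic receptors, was 0.39 higher (SE 0.10), and Klhl2, an adaptor of cullin ubiquitin ligases, 0.22 (SE 0.08). For Jak3, Mast3, Homer3 and Klhl2 the knockout arrays lay above all wild-type arrays, as for 19.1% of all genes.

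The remaining 6 genes all read higher: Tmem161a by 0.73, Ccdc124, a ribosome-associated protein, by 0.71, Armc6 by 0.63, Map1s, a microtubule-associated protein, by 0.40, Klhl26 by 0.28 and Tmem59l by 0.12. Only Tmem59l, the dimmest of these, overlapped between genotypes, where 19.1% of all genes had all knockout arrays above all wild-type arrays.

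Several probe sets read the same gene in 20 of the 36 members, which gave 27 readings beside those used above. They come from the same arrays and are no independent check. Of the 11 that read above the median level of genes, 11 had the sign of the gene's brightest probe set, with a median difference of 0.54. Of all 27 it was 22. The second Apela probe set gave 1.32 (SE 0.12), that of Ap1m1 0.91 (SE 0.08) and that of Tmem192 0.996 (SE 0.07). The other probe sets of Sugp2 gave 0.75 (SE 0.12) and 0.27 (SE 0.13), neither of them as far as 0.5 from the common difference. The second Cpe probe set, at 3.66 in knockout and 3.88 in wild type, gave -0.22, and the second one of Nr2c2ap, at 2.52 in knockout and 2.46 in wild type, gave 0.07. Those levels are low on these arrays. The departures of Cpe and Nr2c2ap at their full size therefore rest on 1 probe set each. Mef2b, Arrdc2 and Comp each had just 1 probe set annotated to the gene alone, so their departures rest on 1 as well. The 3 probe sets of Fcho1 gave -0.19, -0.17 and 0.17, and those of Rfxank -0.32, -0.12 and 0.12.

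The genes of the list do not stand alone in their stretch. In the order of the 932 measured genes of chromosome 8 they run from place 320 to place 435, and 80 other measured genes lie between them. Of these 80, the 42 above the median level of genes had a median difference of 0.38, beside 0.44 for the 30 members above it. The 38 dimmer ones had -0.03. The 4 with the highest difference were Msmo1, an enzyme of cholesterol synthesis (1.37), Plvap, a protein of endothelial fenestrae (1.14), Lpar2, a receptor of lysophosphatidic acid (1.07), and Rex1bd (1.07). The 4 with the lowest were Zfp882 (-0.38), lipoprotein lipase Lpl (-0.37), the splicing-related Sugp1 (-0.35) and Niban3 (-0.29).

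The measured genes before Cpe, namely Anxa10, Spock3 and Tll1, read at most 3.19 as a group mean and had differences of 0.03, -0.02 and 0.02. After Ap1m1 came Klf2, a Krüppel-like factor of naive pluripotency. It read 10.36, 10.37 and 10.40 in knockout cells, against 11.11, 11.18 and 11.17 in wild-type cells, a difference of -0.78 (SE 0.05; limma, Benjamini-Hochberg adjusted p = 0.000116). Its neighbours Eps15l1 and Calr3 had differences of 0.24 and 0.14, which did not pass.

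Along chromosome 8 the higher levels were not limited to the listed genes, nor did they cover the whole chromosome. Above the median level, the 157 genes before Cpe had a median difference of -0.09, with 57 positive and 100 negative. The 289 genes after Ap1m1 had 0.37, with 243 positive and 46 negative. The chromosome was also cut into 19 consecutive windows of up to 50 places, counting only genes above the median level that are not members. The median was -0.34 to -0.06 in the first 5 windows and 0.20 to 0.52 in the other 14. The sign changed from the window of places 201 to 250 to that of places 251 to 300, ahead of Cpe at place 320. The windows were laid after the values had been seen, and each holds 10 to 35 such genes. Those of places 301 to 350 and 351 to 400, around the members, hold only 17 and 10. On each of the other 19 chromosomes the median of genes above the median level lay between -0.07 and 0.00.

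**Figure D3:**
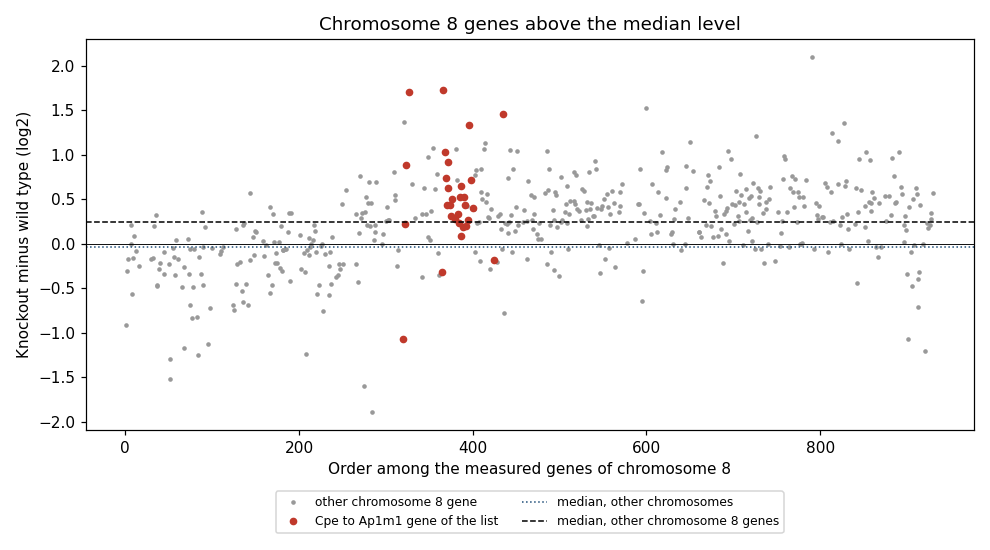
Log2 difference, knockout minus wild type, of chromosome 8 genes above the median level (1 point per gene), by their order among the measured genes of the chromosome. Red points are the listed genes, the dashed line is the median of the other chromosome 8 genes (0.25) and the dotted line that of the other chromosomes (-0.03); points lie mostly below 0 up to about place 250 and mostly above it after.

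Many products of the listed genes work in complexes or have close relatives encoded elsewhere. Of 78 such partners, 71 were measured. Of the 64 on other chromosomes 8 rose and 11 fell, 12.5% and 17.2%, beside 12.5% and 17.5% of all genes. Their median difference was -0.02. These partners were brighter than genes in general, with a median level of 7.48 beside 5.83, so these shares do not compare like with like. Of genes above the median level on other chromosomes, 19.3% were called higher and 28.0% lower. Of the 7 partners on chromosome 8 itself, 3 rose and 0 fell in limma (4 did not pass), with a median of 0.28. They were Lsm6 (0.71; limma, Benjamini-Hochberg adjusted p = 0.000256), Ap1g1, the large chain of AP-1 (0.50; adjusted p = 0.00135), and the ceramide synthase gene Cers4 (0.32; adjusted p = 0.00534). Lsm1, Junb, Mast1 and Borcs8, also on chromosome 8, had differences of -0.10, 0.28, -0.14 and 0.14. Of these 7 partners, Cers4 (place 35) and Lsm1 (place 173) lie in the first 5 windows, whose medians were negative. Among all 896 chromosome 8 genes outside the list, 32.1% were called higher and 10.7% lower.

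The measured partners of Cope, Lsm4 and Ap1m1 went in both directions, while those of Upf1 all read higher. Beside Cope, 8 COPI subunits were measured, and Copz1 rose by 0.22 while Copa fell by 0.21. The 6 others had differences from -0.15 to 0.02. Beside Upf1, 3 of 4 measured factors of nonsense-mediated decay rose, all on other chromosomes. That is 75%, beside 12.5% of all genes and 19.3% of genes above the median level on other chromosomes. They were Smg6 (0.43), Upf2 (0.39) and Smg5 (0.32). Smg1 had 0.15 and did not pass. Beside Lsm4, Lsm6 rose and Lsm8 fell by 0.19, of 6 measured. The calls of Copz1, Smg5 and Lsm8 each held in only 1 of the 6 fits with 1 array left out, and that of Copa in 2. Beside Ap1m1, which read 1.46 higher, its epithelial paralogue Ap1m2 fell by 1.22, with means of 8.40 ± 0.04 in knockout and 9.62 ± 0.09 in wild type (SD, n = 3 each; adjusted p in limma = 6.84e-05). The small chain gene Ap1s2 fell by 0.56. Ap1b1, the other large chain, differed by 0.02.

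In other families either 1 gene passed, several passed in both directions, or none did. Of the JUN and FOS genes only Fos passed, higher by 0.76. Rfx5, which pairs with Rfxank in the RFX complex, fell by 0.68. Of the class IA PI3 kinase genes Pik3r3 fell by 1.07, and 4 others had -0.17 to -0.03. Mef2d rose by 0.60 and Mef2a fell by 0.45. Among ceramide synthases Cers2 rose by 0.49 and Cers6 fell by 0.55, beside Cers4. Eaf1, a partner of Ell, rose by 0.28 and Aff1 fell by 0.20. Homer1 fell by 0.31 and the BORC subunit gene Borcs6 by 0.21. The receptor of the Apela peptide, Aplnr, read 4.69 in knockout and 4.49 in wild type, below the median level, and did not pass. None of the relatives Jak1, Jak2 and Tyk2 of Jak3 passed in limma, with differences of 0.02, -0.06 and -0.10, nor did the CREB coactivators Crtc2 (0.20) and Crtc3 (-0.24). Of the 22 partner calls, 15 held with each array left out in turn. Of the 6 fits with 1 array left out, the calls of Borcs6, Copz1, Eaf1, Lsm8 and Smg5 held in only 1 each. That of Copa held in 2 and that of Aff1 in 3. The highest adjusted p in limma of these calls lay between 0.0618 (Aff1) and 0.114 (Copa). All 22 calls kept their sign.

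**Figure D4:**
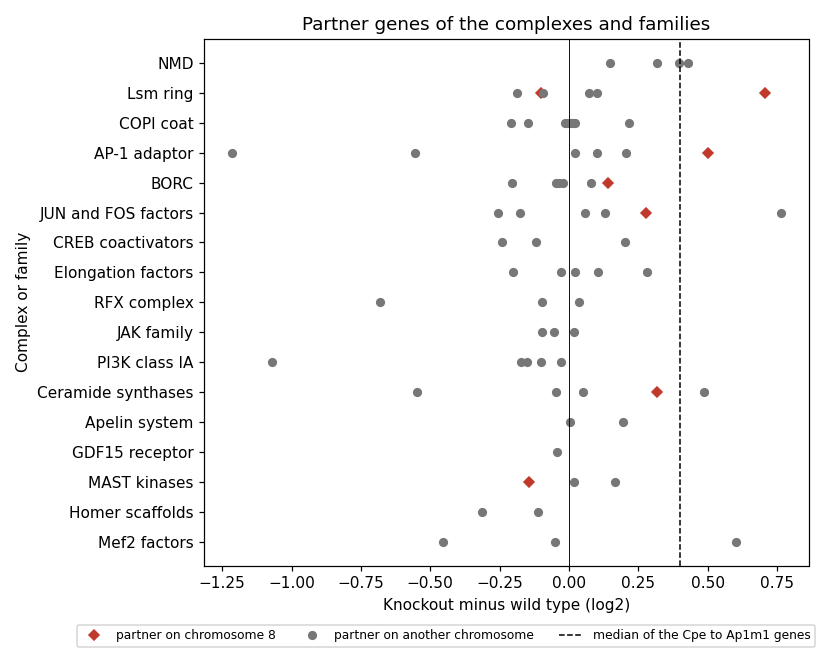
Log2 difference, knockout minus wild type, of 71 measured partner genes (1 point per gene) by complex or family; diamonds are the 7 partners on chromosome 8 and circles those on other chromosomes. The dashed line is the median of the 36 listed genes, 0.40; the circles spread to both sides of 0, with a median of -0.02.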

How the data were processed

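RNA of 3 Sirt1 knockout and 3 wild-type samples was read on 1 array each. The deposited values are log2 levels that the authors made by RMA using the program Partek 6.5, according to the submitters' processing notes; the log2 scale was taken from their range, and no settings are given in the labels. The table held 45101 probe sets, of which 64 controls, 932 with several gene symbols and 9160 with none were left out. Each of 18193 genes was read on its brightest probe set by the mean over all arrays. Gene order came from RefSeq on GRCm38.p6, which held 18028 of the genes. Genotypes were compared across all genes with limma 3.58.1 in R 4.3.3 (lmFit, eBayes, two-sided; Benjamini-Hochberg adjustment at 0.05), after tests on simulated data. The number of arrays limits the precision.

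The listed genes, partner list, motifs and tests were chosen with earlier results of these data known. The rule for names covered Sirt1, all listed genes, the 3 measured genes on either side, the 4 highest and 4 lowest genes between them, and up to 3 called partners per complex; other partners were named after their values were seen. A gene departed from the common difference at 0.5 or more from the median of the 36 genes. Alternatives covered normalisation, probe sets, dim genes, variance model, replicate block, single arrays left out, thresholds and margins. Like-numbered arrays deviated together across genes at r = 0.0515, -0.0865 and 0.198, and the labels do not say that they were handled together, so the numbers were not treated as pairs.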

Additional observations from a re-analysis of the deposited data

How the results depend on the processing

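The count of the listed genes called higher (25) stayed at 22 to 25 with single arrays left out. The median difference of the listed genes (0.40) was 0.35 with all probe sets of a gene averaged and 0.37 to 0.44 with single arrays left out, and it kept its sign under every alternative run. Of 5462 genes called in all, 3356 had an adjusted p under 0.01, and 4104 to 4753 were called with single arrays left out. Partner genes called (22) numbered 15 to 20 with single arrays left out. Departing genes (11) numbered 6 at a margin of 0.75, namely Apela, Nr2c2ap, Arrdc2, Ap1m1, Cpe and Comp, 16 at 0.3, and 9 to 12 with single arrays left out. Sugp2, Kcnn1 and Fcho1 each left that set without at least 1 array, and Tmem192 and Crtc1 entered it without knockout replicate 1 or wild-type replicate 3. Measured from 0.07, the median of all 896 other chromosome 8 genes with dim ones included, 13 departed, 8 of them among the 11. Fcho1, Kcnn1 and Rfxank were lost, and Armc6, Ccdc124, Lsm4, Tmem161a and Tmem192 gained. With probe sets averaged, 8 genes departed, 7 of them among the 11. In that setting Fcho1, Kcnn1, Rfxank and Sugp2 were lost and Tmem192 gained. With the replicate number as a block (replicate block), 4700 genes, 23 listed genes in the higher direction and 19 partner genes were called; in this balanced design the block cannot change a difference, so it says nothing about which genes depart. The arrays' precision is low for genes near background, such as Comp and Kcnn1.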
